A study of Mus musculus with 12 samples.

Results

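MYC, its partner MAX and the MXD family of competing repressors were followed in mouse melanoma cells treated with an inhibitor of the kinase MEK. The members were the 9 genes Myc, Mycn, Mycl, Max, Mxd1, Mxd3, Mxd4, Mxi1 and Mnt, and every probe set that the array annotation pairs with 1 of them alone was taken, which gave 22 of the 45037 probe sets measured, or 9 of 18193 genes with a probe set of their own. The cells were B16-OVA, melanoma cells derived from B16-F10 and made to carry ovalbumin, grown as a bulk culture. They received GDC-0623, a MEK inhibitor (MEKi), at 100 nM, or its solvent DMSO alone, and were taken 24 h or 72 h later. Each of the 4 groups (MEKi 24 h, DMSO 24 h, MEKi 72 h and DMSO 72 h) held 3 arrays, 12 in all, and all groups share the ovalbumin transgene and a single cell line, so they stand for this line only. The series text calls the replicates biological without saying that they were separate cultures, so the spread behind each p-value may be partly technical.

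MYC proteins are basic helix-loop-helix leucine zipper factors that bind DNA only as pairs with MAX, at E-box sites, and switch on genes for ribosome biogenesis, nucleotide synthesis and cell cycle entry. MXD1, MXD3, MXD4, MXI1 and MNT also pair with MAX, bind the same sites and recruit the SIN3 corepressor with histone deacetylases, so that the supply of activators and repressors sets which complexes form. Signaling through ERK, the kinase activated by MEK, is known to keep MYC transcription and MYC protein high in melanoma and other tumors.

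Promoters of 4 members are shown because the network itself binds E-boxes, and these are the member windows in which a searched motif was found. The 300 bases from 250 before to 50 after the transcript start were taken from a table of RefSeq promoters of build GRCm38.p6, in which 8 of the 9 members matched 10 windows, and no window of Myc was used here. Both strands were searched for the E-box CACGTG, the ETS motif CCGGAAGT and the E2F motif GGCGGGAA, which do not overlap each other where found. CACGTG occurred in 3 of the 10 member windows (Max, Mxd4 and Mnt), against 7.15% of all 32851 windows, and GGCGGGAA in 1 (Mxd3), against 2.19%. CCGGAAGT occurred in 0 member windows and in 3.89% of all windows. Capitals mark the matched letters, each sequence is written on the strand of its gene, and a match describes letters only. Max lies on the minus strand at chr12:76962199-76962498, with the E-box centered on the start site. Mxd4 lies on the minus strand at chr5:34187661-34187960, with the E-box centered at -216. Mnt lies on the plus strand at chr11:74830674-74830973, with the E-box at -120, and Mxd3 on the minus strand at chr13:55329682-55329981, with the E2F letters at -133.
Max: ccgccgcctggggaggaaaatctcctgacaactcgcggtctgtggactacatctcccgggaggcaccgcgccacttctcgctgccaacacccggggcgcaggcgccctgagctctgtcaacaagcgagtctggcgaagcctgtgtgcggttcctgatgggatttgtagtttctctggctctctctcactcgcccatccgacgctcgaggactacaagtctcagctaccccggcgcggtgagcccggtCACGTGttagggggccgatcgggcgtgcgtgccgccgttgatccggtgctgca
Mxd4: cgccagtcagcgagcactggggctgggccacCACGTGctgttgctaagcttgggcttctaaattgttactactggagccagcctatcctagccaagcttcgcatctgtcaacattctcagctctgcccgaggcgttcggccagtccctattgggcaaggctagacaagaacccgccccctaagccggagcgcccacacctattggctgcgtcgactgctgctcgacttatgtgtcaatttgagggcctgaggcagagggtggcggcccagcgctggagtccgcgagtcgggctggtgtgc
Mnt: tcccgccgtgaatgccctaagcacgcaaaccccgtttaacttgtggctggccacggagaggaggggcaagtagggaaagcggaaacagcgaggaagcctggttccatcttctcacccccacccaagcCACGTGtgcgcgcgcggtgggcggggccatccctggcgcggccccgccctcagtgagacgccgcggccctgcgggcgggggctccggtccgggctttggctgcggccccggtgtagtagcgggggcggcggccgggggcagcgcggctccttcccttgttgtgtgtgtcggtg
Mxd3: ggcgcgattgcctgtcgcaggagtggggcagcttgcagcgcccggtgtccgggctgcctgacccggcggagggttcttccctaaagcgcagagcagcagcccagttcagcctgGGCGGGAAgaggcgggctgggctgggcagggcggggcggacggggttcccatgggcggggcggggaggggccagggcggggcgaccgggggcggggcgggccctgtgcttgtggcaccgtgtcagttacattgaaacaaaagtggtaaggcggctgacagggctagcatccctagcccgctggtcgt

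The values are log2 RMA signals, which compare arrays for 1 probe set but not different probe sets with each other, and the number of arrays limits their precision. The array medians lay between 5.31 and 5.42. As a check of the labels, of 6 genes that report ERK output, 5 were called lower at 24 h and 4 at 72 h. Over all genes 5.86% and 5.14% were called lower. The 4 include Egr1, whose call 6 of 12 alternative settings ended. At 72 h 2 of the 6 had positive differences (1 at an unadjusted p under 0.05), and 0 were called higher at either time. Over all 12 arrays the MEKi effect was called higher at 72 h than at 24 h for 3 of the 6 (1.97% of all genes). The ERK phosphatase gene Dusp6 differed by -1.41 ± 0.17 at 24 h and -1.29 ± 0.12 at 72 h (log2, moderated SE, n = 3 per group). All 7 melanocyte markers were above the median probe set level of 5.36, against 1 of 4 immune, 0 of 4 fibroblast, 1 of 3 endothelial and 1 of 4 epithelial markers. The summed melanocyte marker signal lay between 16.54 and 16.58 in MEKi 24 h arrays and 16.40 and 16.42 in DMSO 24 h arrays, and between 16.50 and 16.56 in MEKi 72 h arrays and 16.42 and 16.52 in DMSO 72 h arrays. The summed immune marker signal lay between 6.22 and 6.48 in MEKi 24 h arrays and 6.30 and 6.32 in DMSO 24 h arrays, and between 6.56 and 6.60 in MEKi 72 h arrays and 6.42 and 6.59 in DMSO 72 h arrays. The part of these markers in the results was not tested. Over all probe sets, 3801 were called at 24 h, a count that became 1133 to 5091 when 1 array was left out, and was highest without MEKi 24 h replicate 3. At 72 h, 3260 were called, and 1383 to 2716 with 1 array left out. All MEKi arrays lay above all DMSO arrays in 13.3% of all probe sets at 24 h and below them in 14.8%. At 72 h these shares were 12.3% and 12.3%, so groups that do not overlap are common and are not a call.

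With MEKi for 24 h, Myc fell and the repressor genes Mxd4 (3 of 4 probe sets) and Mxd1 (2 of 3) rose, while Max, Mxd3, Mxi1 and Mnt did not pass the test. Of the 22 member probe sets, 5 were called higher and 1 lower at an adjusted p of 0.05 (limma with Benjamini-Hochberg adjustment over all 45037 probe sets, the test behind every adjusted p given), against 3.83% of all probe sets called higher and 4.61% called lower. The median difference of the members was 0.14 and that of all probe sets 0.01 (log2). The count of 6 fell to 1 without MEKi replicate 2 and to 3 without MEKi replicate 1, DMSO replicate 1 or DMSO replicate 3, and was 8 without MEKi replicate 3. After 72 h, Myc and Mxi1 (on 1 of 2 probe sets) were lower with MEKi than with DMSO. Here 2 probe sets were called lower and 0 higher (1 higher at an unadjusted p under 0.05), against 4.25% lower and 2.99% higher over all probe sets. That count of 2 was 1 without MEKi replicate 1, MEKi replicate 2 or DMSO replicate 1, 3 without MEKi replicate 3 or DMSO replicate 2, and 4 without DMSO replicate 3 or with all 12 arrays in 1 fit. The RNA came from whole cultures, in which a change in every cell and a change in the share of cells that hold the transcript cannot be told apart.

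Members also differed with harvest time. In DMSO, 72 h against 24 h, 6 member probe sets were called higher and 3 lower, against 11.3% and 14.3% of all probe sets. With MEKi, 72 h against 24 h, 5 were called higher and 5 lower, against 11.3% and 13.9%. For the control RNA Dap, spiked in before labeling, the 3' probe set exceeded the 5' one by 1.34 to 1.47 in the 6 arrays of 72 h and 1.96 to 2.16 in the 6 arrays of 24 h, so harvest time and labeling cannot be told apart in any comparison across times. A separate contrast over all 12 arrays asked whether the MEKi effect differed between the times, and called 2 member probe sets lower at 72 h than at 24 h and 0 higher (0 also at an unadjusted p under 0.05), against 1.66% and 1.36% of all probe sets. The comparisons share control arrays, so their values for a gene are given side by side and are not independent of each other.

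Myc, the founding activator of the family, was measured by 1 probe set (1424942_a_at). At 24 h its signal was 9.47, 9.57 and 10.05 with MEKi, against 10.46, 10.50 and 10.65 with DMSO. The treated arrays all lay below the controls, with replicate 3 nearest to them. Myc was 1.79-fold lower with MEKi (-0.84 ± 0.14 log2, SE, n = 3 per group; adjusted p = 0.0119). Without MEKi replicate 2 the difference was -0.78 and no longer called (adjusted p = 0.0563), and without any other single array it stayed called.

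At 72 h Myc had a signal of 7.77, 7.98 and 8.85 with MEKi, against 9.58, 9.72 and 9.86 with DMSO. The groups again did not overlap, and MEKi replicate 3 was again the highest treated array. Myc was 2.87-fold lower with MEKi (-1.52 ± 0.23; adjusted p = 0.0047), and the call held under all 12 alternative settings, with differences of -1.85 to -1.30. Myc was also lower at 72 h than at 24 h, by -0.82 ± 0.09 in DMSO (1.76-fold; adjusted p = 0.000468) and by -1.50 ± 0.25 with MEKi (2.82-fold; adjusted p = 0.00215). In order of mean signal, MEKi 72 h was lowest at 8.20 ± 0.57 (SD, n = 3), MEKi 24 h and DMSO 72 h followed at 9.70 ± 0.31 and 9.72 ± 0.14 with overlapping arrays, and DMSO 24 h was highest at 10.54 ± 0.10. The MEKi effect at 72 h minus that at 24 h was -0.68 (95% interval -1.34 to -0.02; adjusted p = 0.303), which did not pass. It passed only without MEKi 72 h replicate 3 (-1.01; adjusted p = 0.0185).

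Mycn and Mycl, the relatives of Myc best known from neural and lung tumors, did not pass the test with MEKi at either time. The brightest Mycn probe set (1425923_at) had 6.98, 6.89 and 6.93 with MEKi at 24 h, against 6.85, 6.91 and 6.89 with DMSO. These arrays overlapped, and the difference was 0.05 ± 0.06 (adjusted p = 0.69). At 72 h it had 7.27, 7.24 and 7.25 with MEKi, against 7.11, 6.91 and 7.15 with DMSO. All treated arrays lay above the controls, by 0.20 ± 0.09 (adjusted p = 0.252). With MEKi, 72 h against 24 h, this probe set was called higher (0.32 ± 0.07; adjusted p = 0.00877), a call that all 12 alternatives kept, and in DMSO the same step was 0.17 ± 0.08 (adjusted p = 0.166), which passed only without DMSO 72 h replicate 2 (0.0451). The other Mycn probe sets (1425922_a_at and 1417155_at) ranged from 4.58 to 4.97 and from 2.68 to 3.17 over all arrays. All 3 Mycl probe sets were dim, with signals of 3.07 to 4.72 and below the median probe set level, and differed by -0.04 to 0.21 with MEKi over both times.

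Max, the partner that both activators and repressors need, was measured by 1 probe set (1423501_at). At 24 h it had 9.37, 9.28 and 9.40 with MEKi, against 9.27, 9.53 and 9.25 with DMSO. The group means were the same at 9.35, with a 95% interval of -0.20 to 0.20 for the difference. At 72 h Max had 9.03, 9.38 and 8.84 with MEKi, against 8.67, 9.03 and 8.73 with DMSO. The arrays overlapped, and the difference of 0.27 ± 0.14 did not pass (95% interval -0.05 to 0.60; adjusted p = 0.337). In DMSO, Max was lower at 72 h than at 24 h by -0.54 ± 0.12 (1.45-fold; adjusted p = 0.00936 and called under all 12 alternatives), and with MEKi the same step was -0.27 ± 0.12 (adjusted p = 0.151). With MEKi the step passed only when MEKi 72 h replicate 2 was left out (-0.41; adjusted p = 0.0165).

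**Figure D1:**
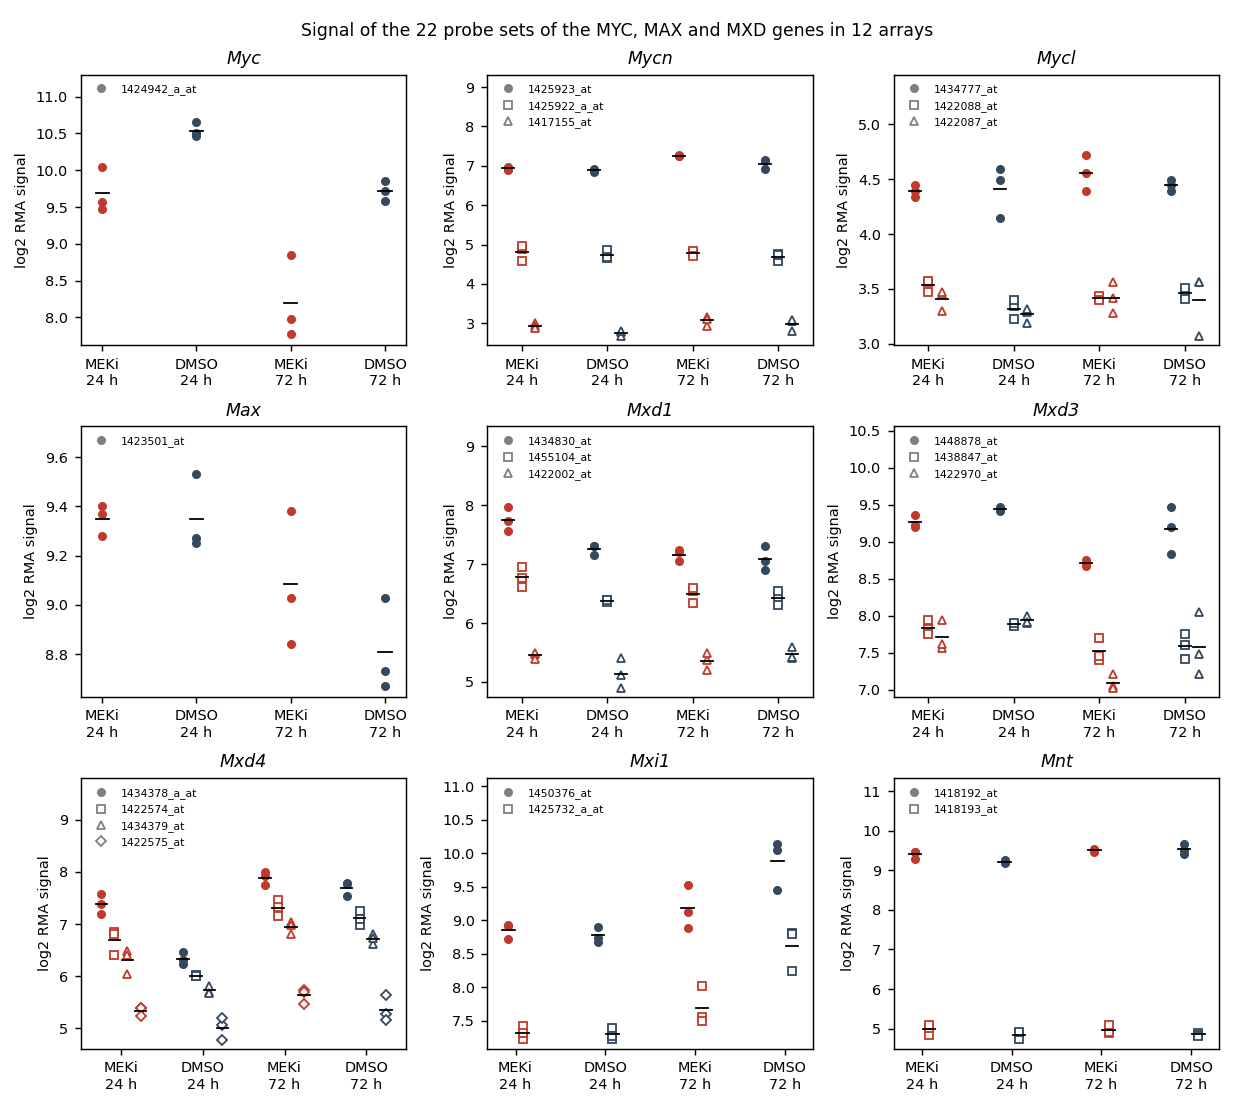
Log2 RMA signal (y axis) of each member probe set in the 12 arrays, by gene and group (x axis, MEKi left of DMSO within each time). Symbols are single arrays (filled for the brightest probe set of a gene) and black bars group means, with Myc lowest in MEKi 72 h arrays (7.77 to 8.85) and Mxd4 1434378_a_at lowest in DMSO 24 h arrays (6.23 to 6.46).

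Mxd4, a repressor known from differentiating and resting cells, had the largest range of group means among the repressor genes, at 1.56. Its brightest probe set (1434378_a_at) had 7.39, 7.57 and 7.19 with MEKi at 24 h, against 6.46, 6.23 and 6.31 with DMSO. The treated arrays were all higher, with replicate 3 the lowest of them. Mxd4 rose 2.07-fold with MEKi on this probe set (1.05 ± 0.11; adjusted p = 0.0023), and the call held under all 12 alternatives. A further probe set (1422574_at) had 6.85, 6.80 and 6.41 with MEKi, against 6.03, 6.0 and 6.0 with DMSO. It was called higher by 0.68 ± 0.11 (adjusted p = 0.0111), a call that ended without MEKi replicate 2 (adjusted p = 0.0516). The third (1434379_at) had 6.48, 6.41 and 6.04 with MEKi, against 5.69, 5.82 and 5.68 with DMSO, a rise of 0.58 ± 0.11 (adjusted p = 0.02). That call ended without MEKi replicate 1 or 2 or DMSO replicate 1 or 3 (adjusted p of 0.0777, 0.0838, 0.0712 and 0.0697 in that order). The dimmest Mxd4 probe set (1422575_at) differed by 0.32 ± 0.11 (adjusted p = 0.121), so that all 4 differences were positive and 3 were called.

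At 72 h the same Mxd4 probe set (1434378_a_at) had 7.75, 7.92 and 8.00 with MEKi, against 7.76, 7.54 and 7.79 with DMSO. The groups overlapped, and the difference of 0.19 ± 0.10 did not pass (95% interval -0.03 to 0.42; adjusted p = 0.335). The other 3 Mxd4 probe sets differed by 0.20 to 0.28 at 72 h and were not called. Mxd4 had risen with time in DMSO on the 3 brighter probe sets, by 1.36 ± 0.10 (2.57-fold; adjusted p = 7.45e-05), 1.10 ± 0.08 (9.18e-05) and 0.99 ± 0.08 (0.000132), each called under all 12 alternatives. With MEKi these rose by 0.51 ± 0.11, 0.63 ± 0.13 and 0.64 ± 0.12 between 24 h and 72 h (adjusted p of 0.00794, 0.00544 and 0.00401), also under all 12 alternatives. For 1434378_a_at the MEKi effect was smaller at 72 h than at 24 h by -0.86 ± 0.15 (adjusted p = 0.00941), called under all 18 settings tried. For 1422574_at and 1434379_at this difference was -0.47 ± 0.16 and -0.35 ± 0.15 (adjusted p of 0.147 and 0.283), the first called only without MEKi 24 h replicate 3 (-0.61; adjusted p = 0.0306).

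Mxi1, a repressor first described as a MAX interactor, was measured by 2 probe sets that moved together across the arrays (r = 0.982 over 12 arrays in 4 groups, as a description). At 24 h the probe set 1425732_a_at had 7.42, 7.23 and 7.32 with MEKi, against 7.40, 7.23 and 7.27 with DMSO. These values overlapped, and the difference was 0.02 ± 0.08 (95% interval -0.15 to 0.20). At 72 h it had 7.56, 7.49 and 8.02 with MEKi, against 8.81, 8.25 and 8.80 with DMSO. The treated arrays all lay below the controls. Mxi1 was 1.91-fold lower with MEKi at 72 h (-0.93 ± 0.18; adjusted p = 0.0123), a call that ended without MEKi replicate 1 (adjusted p = 0.0593), MEKi replicate 2 (0.0586) or DMSO replicate 1 (0.0528). The brighter probe set (1450376_at) had 9.13, 8.89 and 9.52 with MEKi at 72 h, against 10.05, 9.45 and 10.14 with DMSO. Here MEKi replicate 3 lay above DMSO replicate 2, and the difference of -0.70 ± 0.20 did not pass (adjusted p = 0.0628). It passed when the replicate number was used as a block (adjusted p = 0.00557), with all 12 arrays in 1 fit, without MEKi replicate 3 (0.0343) and without DMSO replicate 2 (0.0156).

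Mxi1 rose with time in DMSO on both probe sets, by 1.32 ± 0.14 (2.50-fold; adjusted p = 0.000388) for 1425732_a_at and 1.11 ± 0.17 (2.15-fold; adjusted p = 0.00164) for 1450376_at, each called under all 12 alternatives. With MEKi the steps from 24 h to 72 h were 0.37 ± 0.13 and 0.33 ± 0.14 and did not pass (adjusted p of 0.0703 and 0.128). Without MEKi 72 h replicate 2 both passed (adjusted p of 0.0342 for 1450376_at), and 1425732_a_at also passed on renewed quantile normalization, among brighter probe sets only and with a trended prior. The MEKi effect on 1425732_a_at was lower at 72 h than at 24 h by -0.95 ± 0.22 (adjusted p = 0.0297). This call held in 8 of 18 settings and ended without any of the 6 arrays of 24 h, MEKi 72 h replicate 1 or 2, or DMSO 72 h replicate 1 or 3, with an adjusted p of up to 0.0871. For 1450376_at the difference of effects was -0.78 ± 0.24 (adjusted p = 0.111), which passed with the replicate number as a block within each time (0.0114), without MEKi 72 h replicate 3 (0.0391) and without DMSO 72 h replicate 2 (0.0157).

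Mxd1, a repressor induced when myeloid and epithelial cells differentiate, rose with MEKi at 24 h on 2 of its 3 probe sets. Its brightest (1434830_at) had 7.74, 7.97 and 7.56 with MEKi, against 7.30, 7.30 and 7.15 with DMSO. The groups did not overlap, and the rise was 1.42-fold (0.51 ± 0.11; adjusted p = 0.0242). The next (1455104_at) had 6.77, 6.95 and 6.62 with MEKi, against 6.39, 6.35 and 6.39 with DMSO, a rise of 0.40 ± 0.09 (adjusted p = 0.0275). Both calls ended when MEKi replicate 1, MEKi replicate 2 or any DMSO array was left out, with an adjusted p of up to 0.0837 and 0.0917. The third (1422002_at) differed by 0.31 ± 0.12 (adjusted p = 0.148) and passed only without DMSO replicate 2 (0.0415). At 72 h 1434830_at had 7.05, 7.20 and 7.24 with MEKi, against 7.06, 6.90 and 7.30 with DMSO. The groups overlapped and the 3 differences, from -0.12 to 0.08, were not called. With MEKi 1434830_at was lower at 72 h than at 24 h by -0.59 ± 0.11 (adjusted p = 0.00346, called under all 12 alternatives). The MEKi effect on Mxd1 at 72 h minus that at 24 h was -0.43, -0.34 and -0.43 on the 3 probe sets and did not pass (adjusted p of 0.196, 0.218 and 0.188).

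Mxd3, the family member known to be made in S phase of dividing mouse cells, did not pass with MEKi at 24 h, when its 3 probe sets differed by -0.23 to -0.05, except 1422970_at when MEKi replicate 3 was left out (-0.35; adjusted p = 0.0196). At 72 h its brightest probe set (1448878_at) had 8.76, 8.68 and 8.69 with MEKi, against 9.20, 9.47 and 8.84 with DMSO. The groups did not overlap, but the DMSO arrays were spread, and the difference of -0.46 ± 0.14 did not pass (adjusted p = 0.0831). It passed without DMSO replicate 3 (-0.62; adjusted p = 0.0135), with all 12 arrays in 1 fit and with a trended prior. The probe set 1422970_at differed by -0.48 ± 0.18 (adjusted p = 0.155) and passed only without DMSO replicate 3 (0.0459), and 1438847_at by -0.07 ± 0.11. With MEKi, Mxd3 was lower at 72 h than at 24 h on all 3 probe sets, by -0.55 ± 0.08 for 1448878_at (1.47-fold; adjusted p = 0.000716), -0.61 ± 0.11 for 1422970_at (adjusted p = 0.00302) and -0.32 ± 0.10 for 1438847_at (adjusted p = 0.0373). The first 2 held under all 12 alternatives, and the third in 6 of 12, with an adjusted p of up to 0.118 without MEKi 72 h replicate 1 or 3 or MEKi 24 h replicate 1 or 3. In DMSO only 1438847_at was called lower over time (-0.30 ± 0.09; adjusted p = 0.0435), a call kept in 5 of 12 alternatives and, with 1 array left out, only without DMSO 72 h replicate 2 (adjusted p of up to 0.117 otherwise). The other 2 differed by -0.27 ± 0.14 and -0.36 ± 0.18 in DMSO over time and passed only without DMSO 72 h replicate 2 (adjusted p of 0.0322 for 1448878_at and 0.00516 for 1422970_at). The 3 Mxd3 probe sets correlated at r = 0.815 to 0.967 with each other over the 12 arrays.

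Mnt, the repressor present in most cell types, was called in 1 of the comparisons. Its brightest probe set (1418192_at) had 9.46, 9.47 and 9.28 with MEKi at 24 h, against 9.25, 9.20 and 9.19 with DMSO. All treated arrays were higher, by 0.19 ± 0.07, which did not pass (adjusted p = 0.151) except without MEKi replicate 3 (0.25; adjusted p = 0.0418). At 72 h it had 9.54, 9.47 and 9.52 with MEKi, against 9.52, 9.42 and 9.67 with DMSO. These overlapped, with a difference of -0.03 ± 0.09 (95% interval -0.23 to 0.17). In DMSO Mnt rose with time by 0.32 ± 0.08 (1.25-fold; adjusted p = 0.0199), a call that ended without DMSO 24 h replicate 2 (0.0649) or replicate 3 (0.0679). The dim Mnt probe set (1418193_at, 4.74 to 5.09) was not called in any comparison and did not follow the bright one (r = 0.051).

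**Figure D2:**
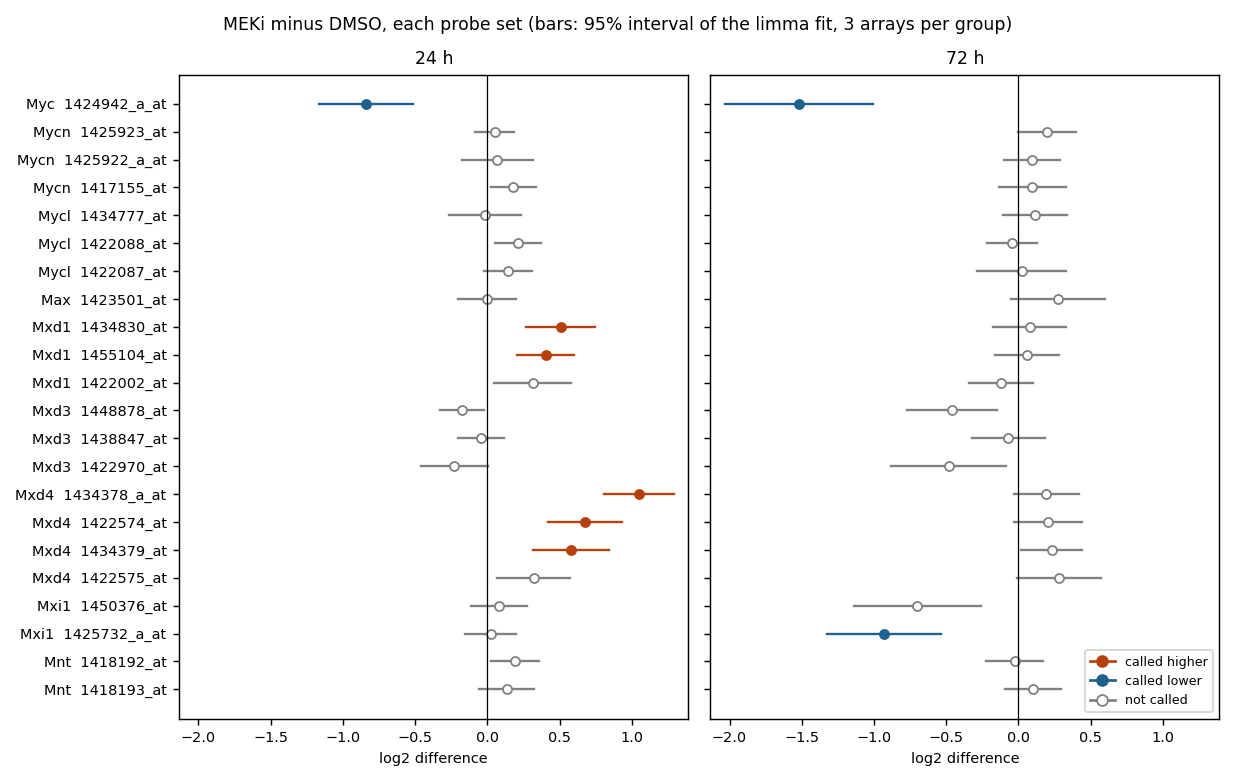
Log2 difference, MEKi minus DMSO (x axis), of the 22 member probe sets (rows) at 24 h and 72 h, with points as fitted differences, bars as 95% intervals and filled points called. Myc is the lowest point in both panels (-0.84 and -1.52), 3 Mxd4 and 2 Mxd1 probe sets are called higher at 24 h, and Mxi1 1425732_a_at is called lower at 72 h (-0.93).

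**Figure D3:**
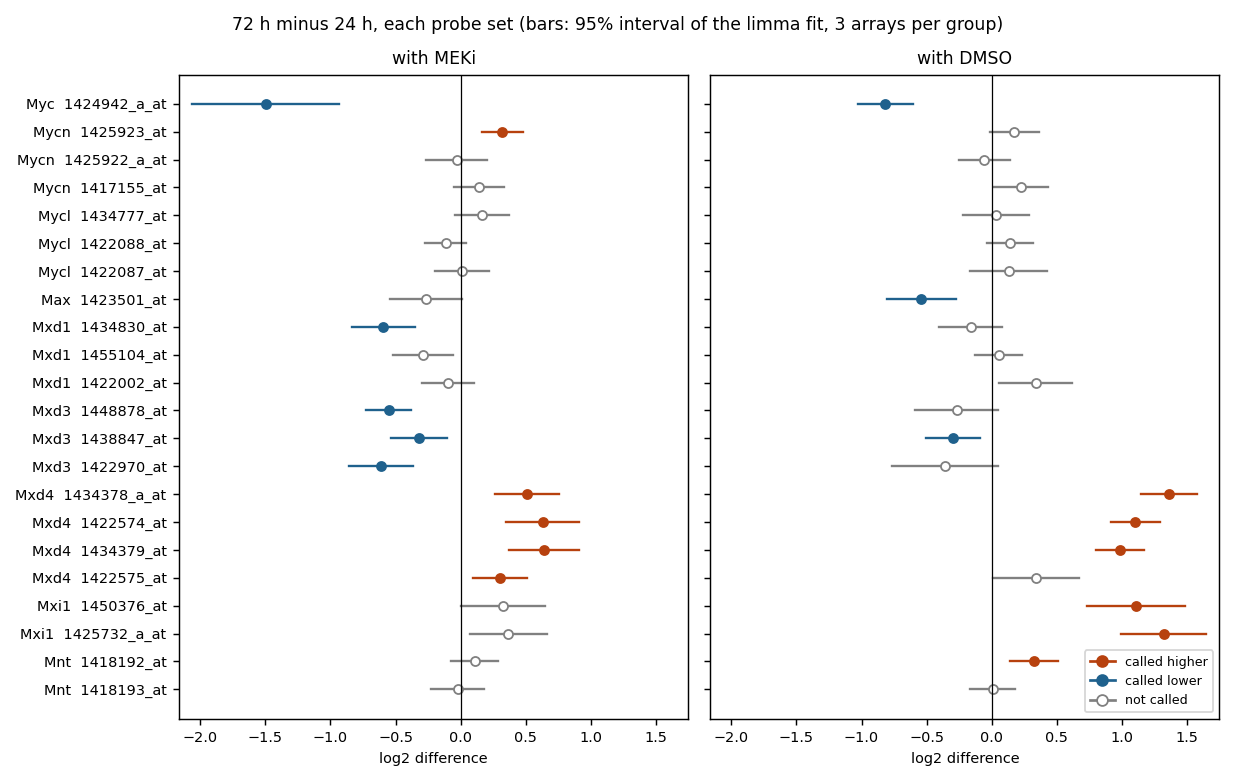
Log2 difference, 72 h minus 24 h (x axis), of the 22 member probe sets (rows), with MEKi on the left and DMSO on the right, with points as fitted differences, bars as 95% intervals and filled points called. Myc is lower at 72 h in both (-1.50 with MEKi and -0.82 with DMSO), and Mxi1 1425732_a_at differs by 0.37 with MEKi, not called, and 1.32 with DMSO.

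Genes known to be activated by MYC were lower with MEKi at 24 h. Of 37 genes measured by their brightest probe set, 21 were called lower and 0 higher (0 also at an unadjusted p under 0.05). Over all genes 5.86% were called lower and 5.01% higher. Such shares, here and for the other lists, include dim genes and were not matched to a list by signal level. The median difference of the 37 genes was -0.34, against 0.01 over all genes. Polr1b, a subunit of RNA polymerase I, was 1.74-fold lower (-0.80 ± 0.08; adjusted p = 0.0023), and the pseudouridine synthase gene Pus7 differed by -0.79 ± 0.11 (adjusted p = 0.00563), both called under all 12 alternatives. Nolc1, a nucleolar phosphoprotein gene, differed by -0.69 ± 0.11 (adjusted p = 0.0103), and was no longer called without MEKi replicate 1 (adjusted p = 0.0512). The count of 21 became 7 without MEKi replicate 1, 10 without MEKi replicate 2, 12 without DMSO replicate 1 and 11 without DMSO replicate 3, and the median then stayed between -0.35 and -0.29. The cyclin-dependent kinase gene Cdk4, also in the list, had 11.57 ± 0.06 (SD, n = 3) with MEKi and 11.61 ± 0.03 with DMSO and was not called (adjusted p = 0.765).

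At 72 h only 5 of these 37 genes were called lower and 0 higher (1 higher at an unadjusted p under 0.05), against 5.14% and 4.03% of all genes, with a median of -0.13. They were Cad, Fbl, Shmt1, Shmt2 and Slc7a5. Shmt1 and Shmt2, the cytosolic and mitochondrial serine hydroxymethyltransferases, differed by -0.73 ± 0.10 (adjusted p = 0.00286) and -0.69 ± 0.11 (adjusted p = 0.00603), and Slc7a5, a transporter of large neutral amino acids, by -0.54 ± 0.09 (adjusted p = 0.00848). These 3 held under all 12 alternatives. The count was 3 without MEKi replicate 1, 2 or 3 or DMSO replicate 1 or 2, and 9 without DMSO replicate 3. In DMSO over time, 28 of the 37 were called lower and 1 (Shmt2, 0.34 ± 0.11) higher, against 16.9% and 14.2% of all genes, with a median of -0.54. With 1 array left out, 25 to 28 were called lower and 0 or 1 higher. Polr1b had 7.82 ± 0.15 with MEKi and 7.96 ± 0.21 with DMSO at 72 h, and 8.38 ± 0.12 with MEKi and 9.18 ± 0.08 with DMSO at 24 h (SD, n = 3). The contrast of effects called 4 of the 37 higher (a higher MEKi minus DMSO value at 72 h than at 24 h) and 0 lower (2 lower at an unadjusted p under 0.05), against 1.97% and 2.1% of all genes. These were Polr1b (0.67 ± 0.15), Odc1, the rate-limiting enzyme of polyamine synthesis (0.51 ± 0.11), the peroxiredoxin gene Prdx3 (0.50 ± 0.09) and the nucleostemin gene Gnl3 (0.45 ± 0.11). With 1 array left out the count of 4 was 1 without MEKi 24 h replicate 1 or 2 or any DMSO 24 h array, 2 without MEKi 72 h replicate 2, and 3 to 6 otherwise. CACGTG occurred in the promoter windows of 10 of the 32 list genes that RefSeq windows matched (31.2%), against 8.09% of all genes.

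**Figure D4:**
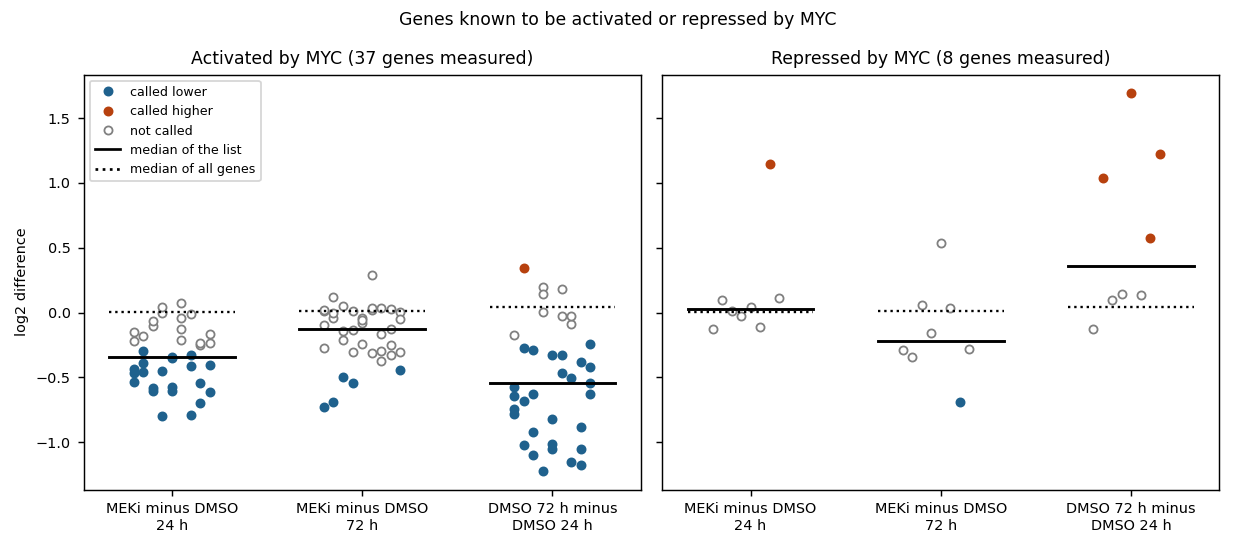
Log2 differences (y axis) of genes known to be activated (left) or repressed (right) by MYC in 3 comparisons (x axis). Points are genes (filled where called), solid lines list medians and dotted lines medians of all genes, and activated genes have medians of -0.34 at 24 h, -0.13 at 72 h and -0.54 in DMSO over time.

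Of 8 genes known to be repressed by MYC, 1 was called higher with MEKi at 24 h and 0 lower (0 also at an unadjusted p under 0.05), against 5.01% and 5.86% of all genes. This was Ndrg1, a growth-arrest gene, with 10.39 ± 0.19 (SD, n = 3) with MEKi and 9.25 ± 0.12 with DMSO, a rise of 1.14 ± 0.10 (SE; adjusted p = 0.0017, called under all 12 alternatives). At 72 h Ndrg1 was lower with MEKi, at 9.14 ± 0.33 against 9.83 ± 0.28 with DMSO (-0.69 ± 0.18 SE; adjusted p = 0.0465), and no other gene of the list was called (1 was higher at an unadjusted p under 0.05), against 5.14% of all genes called lower and 4.03% higher. The list median was -0.22 at 72 h, and -0.06 without DMSO replicate 1, -0.10 without MEKi replicate 2 and -0.14 without MEKi replicate 1. At 24 h it was 0.03, and turned to -0.02 without MEKi replicate 1 and -0.05 without DMSO replicate 3. The 72 h call of Ndrg1 held with the replicate block (adjusted p = 0.00316). It ended without MEKi replicate 1 or 2 or DMSO replicate 1 or 3 (adjusted p of 0.0855, 0.146, 0.15 and 0.135 in that order). It also ended on renewed quantile normalization (0.0618) and with a trended prior (0.0503). The change of effect between the times was -1.83 ± 0.23 for Ndrg1 (adjusted p = 0.00189). In DMSO over time 4 of the 8 rose and 0 fell (0 also at an unadjusted p under 0.05), against 14.2% and 16.9% of all genes, with a median of 0.36 (0.81 among brighter probe sets only), among them the growth-arrest gene Gadd45a (1.69 ± 0.22; adjusted p = 0.000848) and Ndrg2 (1.22 ± 0.23; adjusted p = 0.00537). The cyclin-dependent kinase inhibitor genes Cdkn1a, Cdkn1b, Cdkn1c and Cdkn2b were not called with MEKi at either time.

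Other bHLHZ partners of the network moved in part. Of 4 genes, Mlxip, which encodes the glucose-responsive factor MONDOA, was the 1 called lower with MEKi at 24 h, at 7.74 ± 0.09 against 8.15 ± 0.09 with DMSO (-0.41 ± 0.07 SE; adjusted p = 0.0147). This call ended without MEKi replicate 1 or 2 or DMSO replicate 1 (adjusted p of up to 0.0655). At 24 h 0 of the 4 were called higher, and over all genes 5.86% were called lower and 5.01% higher. Mlx, the MAX-like partner of MONDOA and of some MXD proteins, was called higher at 72 h, at 9.40 ± 0.06 with MEKi and 8.95 ± 0.07 with DMSO (0.44 ± 0.08 SE; adjusted p = 0.0113). It was no longer called without MEKi replicate 2 or DMSO replicate 1 (adjusted p of up to 0.0585). At 72 h 0 of the 4 were called lower, and over all genes 4.03% were called higher and 5.14% lower. In DMSO over time 3 of the 4 fell, against 16.9% of all genes called lower, led by Mlxip (-0.76 ± 0.08; adjusted p = 0.000337) and Mga, the MAX dimerizing protein of a repressive complex (-0.38 ± 0.08; adjusted p = 0.00959).

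Of 14 measured cofactors of MYC and MXD proteins, 6 were called lower with MEKi at 24 h and 4 at 72 h, and 0 higher at either time (0 and 1 higher at an unadjusted p under 0.05). Over all genes 5.86% were called lower at 24 h and 5.14% at 72 h. With 1 array left out the 24 h count was 0, 1 and 6 without MEKi replicate 1, 2 and 3, and 2, 3 and 3 without DMSO replicate 1, 2 and 3. The 72 h count was 0, 0 and 1 without MEKi replicate 1, 2 and 3, and 1, 2 and 3 without DMSO replicate 1, 2 and 3. The largest falls at 24 h were in the ATPase genes Ruvbl2 (-0.54 ± 0.10; adjusted p = 0.0136) and Ruvbl1 (-0.53 ± 0.09; adjusted p = 0.0127), which encode subunits of MYC-bound chromatin complexes, and both calls ended without MEKi replicate 1 or 2, that of Ruvbl2 also without DMSO replicate 1 or 3 (adjusted p of up to 0.0631). Sin3a, the corepressor scaffold that MXD proteins recruit, differed by -0.49 ± 0.10 at 24 h (adjusted p = 0.0195) and was not called with the replicate block (0.0501), nor without MEKi replicate 1 or 2 or DMSO replicate 1 or 2 (up to 0.0816). At 72 h Ruvbl2 differed by -0.53 ± 0.10 (adjusted p = 0.0105), Actl6a, a subunit shared by chromatin remodelers, by -0.40 ± 0.09 (adjusted p = 0.0308) and Wdr5, a MYC-binding scaffold, by -0.36 ± 0.08 (adjusted p = 0.0252). The call of Ruvbl2 ended without MEKi replicate 1 or 2 (adjusted p of up to 0.0502). Those of Actl6a and Wdr5 ended without any MEKi array or DMSO replicate 1, that of Actl6a also without DMSO replicate 3 (up to 0.122) and that of Wdr5 without DMSO replicate 2 (up to 0.0816). In DMSO over time 7 cofactor genes were called lower (4 without DMSO 24 h replicate 1 or on renewed quantile normalization) and 0 higher (0 also at an unadjusted p under 0.05), against 16.9% and 14.2% of all genes, led by the acetyltransferase gene Kat2a (-0.84 ± 0.10; adjusted p = 0.000692). The histone deacetylase genes Hdac1 and Hdac2 were not called at either time.

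Of 15 measured genes that govern MYC protein turnover, 2 were called lower at 24 h and 4 at 72 h, with 0 higher (0 and 1 higher at an unadjusted p under 0.05), against 5.86% and 5.14% of all genes called lower. The count of 2 was 0 without MEKi replicate 1 or 2 or DMSO replicate 3, 1 without DMSO replicate 1 or 2, and 4 or 5 with arrays centered on their median, all 12 arrays in 1 fit, brighter probe sets only or a trended prior. The count of 4 was 2 without MEKi replicate 1 or 2 or DMSO replicate 1, and 3 without any other array. Skp2, a ubiquitin ligase subunit for MYC, was lower at both times (-0.39 ± 0.07, adjusted p = 0.0129, and -0.66 ± 0.10, adjusted p = 0.00498), the 24 h call ending without MEKi replicate 1 or 2 or DMSO replicate 3 (up to 0.0603). Aurka, a mitotic kinase that protects MYCN protein, was lower at 72 h (-0.69 ± 0.10; adjusted p = 0.0047, under all 12 alternatives), while Fbxw7, the ligase subunit that marks MYC for destruction, was not called at either time. Usp37, a deubiquitinase gene, was the other called gene at 24 h (-0.27 ± 0.07; adjusted p = 0.0407), a call lost with the replicate block (0.0576) and when any 1 array was left out (up to 0.123). At 72 h it differed by -0.42 ± 0.08 (adjusted p = 0.0123), which ended without MEKi replicate 1 or 2 or DMSO replicate 1 (up to 0.0627). In DMSO over time 8 of the 15 were called lower (5 on renewed quantile normalization) and 0 higher (1 higher at an unadjusted p under 0.05), against 16.9% and 14.2% of all genes, led by the nucleolar deubiquitinase gene Usp36 (-0.77 ± 0.08; adjusted p = 0.000299).

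Over the 12 arrays the genes most like Myc, among 10850 genes above the median level, were Ska2 (r = 0.99), Gabpb1 (0.984), Inafm1 (0.983), Lsm8 and Smc1a (0.98 each), as a description over 4 groups of 3 arrays that share harvest time and treatment. Their group means follow the same order of groups as Myc at the low and high ends, as for Ska2 at 9.63 in MEKi 72 h arrays and 10.47 in DMSO 24 h arrays. The genes most like Mxd4 1434378_a_at were Naxe (r = 0.988), Ergic3 (0.986), Enpp5 (0.984), Smim14 (0.983) and Decr2 (0.982). Smim14, for one, had 10.59 in MEKi 24 h arrays and 9.78 in DMSO 24 h arrays, and 11.14 in MEKi 72 h arrays and 10.80 in DMSO 72 h arrays. Of the 22 member probe sets, 14 lay above the median probe set level, and for 8 of the 9 genes, all except Mycl, the brightest did. Among genes with several probe sets, those of Mxd4 correlated at r = 0.76 to 0.972 over the arrays and those of Mxd1 at 0.169 to 0.844.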

How the data were processed

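Total RNA (200 ng per array) from 12 samples was labeled with a 3' IVT kit and hybridized to Affymetrix whole-genome mouse expression arrays. The authors normalized the arrays by RMA (background correction, quantile normalization and summary of probes, which makes array distributions alike and can compress differences), using Chipster per the study methods, with versions not given in the sources used here. The deposited values are log2 signals rounded to 2 decimals, from 2.21 to 14.47, and were used as deposited.

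Of 45101 probe sets, 64 controls were left out. GEO's platform annotation paired 34945 of the other 45037 with 1 gene, 932 with several and 9160 with none. Each comparison was a limma fit (3.58.1, R 4.3.3) of its own 6 arrays, two-sided, with empirical Bayes moderation and Benjamini-Hochberg adjustment over all 45037 probe sets at 0.05. The 12 arrays together gave the contrast between the MEKi effects at 72 h and 24 h. A difference is MEKi minus DMSO or 72 h minus 24 h. The fit was tested on simulated data with noise independent between arrays. That test required recovery only of changes larger than most given here, and held no deviations shared between arrays.

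Named were all members, from each list up to 3 called genes with the largest difference per MEKi comparison and 2 in DMSO over time, and the 5 genes most like Myc and Mxd4. Odc1, Prdx3, Gnl3, Cad, Fbl, Cdk4, Fbxw7, Hdac1, Hdac2 and the Cdkn genes were named after their values were seen. A gene's value in a list is that of its brightest probe set. List genes without a measured probe set of their own were not analysed here. Members and lists were chosen with earlier results of these data known.

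Replicate numbers were checked as pairs by correlating deviations from group means. Same-numbered MEKi and DMSO arrays of a time correlated at 0.073 to 0.189 over all probe sets and at 0.207 to 0.307 over the 22514 brighter ones, against -0.156 to 0.032 and -0.288 to 0.002 for different numbers. Across times within a treatment, same numbers correlated at -0.017 to 0.107 over all probe sets and at -0.015 to 0.202 over the brighter ones. Different numbers there correlated at -0.143 to 0.1 and at -0.253 to 0.188. The numbers were taken to pair arrays within a time, but the main fits used no block. An adjusted p is therefore unpaired unless the block is named with it. Alternatives were the number as a block, all 12 arrays in 1 fit, arrays centered on their median, quantile normalization again, brighter probe sets only, a trended and robust prior, and each array left out.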

Additional observations from a re-analysis of the deposited data

Results flagged for a closer look

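The MEKi effect differed between the harvest times for 2 member probe sets, by a contrast over all 12 arrays. For Mxd4 1434378_a_at the effect at 72 h minus that at 24 h was -0.857 (log2; limma adjusted p = 0.00941), with effects of 0.19 at 72 h and 1.05 at 24 h. For Mxi1 1425732_a_at it was -0.953 (limma adjusted p = 0.0297), with effects of -0.93 at 72 h and 0.02 at 24 h, and was called in 8 of 18 other settings.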

How the results depend on the processing

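Alternatives were tallied only for member probe sets called in a comparison by the main fit or by an alternative. Of these values, 514 kept their direction and side of the threshold, 52 were no longer called, 35 became called and 0 changed direction. Probe sets never called in a comparison, among them those with differences near zero, were not in the tally, so it does not show how often their direction changed. The count of called member probe sets was 6 with MEKi at 24 h under every setting that kept all arrays, and 1 to 8 with 1 array left out. At 72 h it was 2 (4 with all 12 arrays in 1 fit, 2 to 4 over the settings with all arrays, 1 to 4 with 1 array left out). In DMSO over time it was 9 (8 to 10, and 7 to 12), with MEKi over time 10 (9 to 11, and 8 to 12), and for the difference of effects 2 (2 to 3, and 1 to 4). With the replicate number as a block the counts were 6, 3, 9, 10 and 2. Between MEKi and DMSO the block added the call of Mxi1 1450376_at at 72 h and ended those of Sin3a and Usp37 at 24 h. Single probe sets were followed under the alternatives only for members and for the list calls picked by the naming rule. Among those named here, the block changed no other call between MEKi and DMSO. Calls of the other genes named here were not followed under the block. The block within each time for the difference of effects was chosen after seeing the data, and Mxi1 1450376_at passed under it. With the replicate block the calls of Mxd3 1438847_at over time were lost (adjusted p of 0.0618 in DMSO and 0.0614 with MEKi) and those of Mxd1 1422002_at in DMSO (0.035) and 1455104_at with MEKi (0.0311) were added, where numbers do not pair arrays. Mxd4 1422575_at over time with MEKi (0.30; adjusted p = 0.0405) kept its call in 3 of 11 settings. Over all probe sets, the count at 24 h was 3298 to 6623 with all arrays and 1133 to 5091 with 1 left out, and at 72 h 3270 to 5373 and 1383 to 2716. The causes were not tested. Dim probe sets (8 of 22 below the median level, those of Mycl and part of Mycn, Mxd1, Mxd4 and Mnt) limit what a missing call can show.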
